A study of Mus musculus with 18 samples.

Results

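A set of 10 genes that encode small calcium-binding proteins of neurons, or regulators of calmodulin, was followed in the mouse striatum. They were taken by gene symbol as 10 of the 55421 genes counted, namely Pcp4, Pcp4l1, Calb1, Ncald, Hpca, Hpcal1, Hpcal4, Vsnl1, Ncs1 and Cabp7. All 10 were among the 20914 genes with enough counts to be tested. Besides their role, they were chosen by log2 fold changes and levels already measured in these libraries, in which Pcp4 and Pcp4l1 differed between zQ175 and WT and Ncald between zQ175 and zQ175:CK2a'(+/-), so the values of all 10 genes in those comparisons, and in zQ175:CK2a'(+/-) against WT, which is their difference, are given as a description without a p-value, and the calls counted there are no test of these genes.

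Calcium that enters a neuron is bound by proteins with EF hands, the helix-loop-helix fold that holds the ion. Buffers such as calbindin mainly soak it up, whereas calcium sensors change shape on binding and act on enzymes, channels and membranes. The neuronal calcium sensor family carries a fatty acid, myristate, at its start, which many members expose when calcium rises and use to attach to membranes. PCP4 and its relative PCP4L1 hold no EF hand, and PCP4 binds calmodulin through an IQ motif and changes how fast calmodulin takes up and releases calcium. Projection neurons of the striatum are rich in calmodulin-dependent signalling and are the cells most vulnerable in Huntington's disease.

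The striata of 18 C57BL/6 mice, 12 to 14 months old, were each sequenced as 1 library of total RNA. The 4 genotypes were WT (n = 5), zQ175 (n = 5), CK2a'(+/-) (n = 3) and zQ175:CK2a'(+/-) (n = 5). zQ175 mice carry 1 knock-in copy of the huntingtin gene with a chimeric human and mouse first exon and an expanded CAG repeat, expressed from the endogenous locus in every tissue, and CK2a'(+/-) mice carry 1 null allele of Csnk2a2, which encodes the CK2a' catalytic subunit of the kinase CK2. No agent was given, and WT mice carry both Csnk2a2 alleles and no expansion. The labels name no sex for a library. By the study's methods each genotype held both sexes. Females were more numerous among the WT and zQ175:CK2a'(+/-) mice, and males among the zQ175 and CK2a'(+/-) mice. The sex ratio thus differed in every comparison of genotype pairs except zQ175:CK2a'(+/-) against WT, including that in which Ncald differed. The level of Xist, a transcript of female cells, was used as a covariate. With it, the log2 fold change of Pcp4 was -0.60 in zQ175 against WT and -1.02 in zQ175:CK2a'(+/-) against CK2a'(+/-). That of Pcp4l1 was -0.47 and -0.52, in the same order.

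Total counts per library ranged from 13612381 to 22702547, and correlations of log2 CPM (read counts brought to the same total by TMM) between libraries of a genotype were at least 0.950. The targeted gene Csnk2a2 followed the labels, with 3.88 to 4.32 log2 CPM for the 8 mice that carry the null allele and 4.88 to 5.23 for the other 10. Defining markers of striatal projection neurons were detected in every library. A pair of zQ175 libraries stood apart by markers of neighbouring regions. Replicate 1 held the highest summed level of 8 thalamic markers (1400 CPM, against at most 695 in the 16 libraries other than these) with each of the 8 at its highest, and the lowest summed level of 12 projection neuron markers (1385 CPM) with each of the 12 at its lowest. Replicate 5 held the highest sums of 10 cortical markers (399 CPM, against at most 216 in those 16 libraries) and of 8 hippocampal markers (885 CPM, against at most 725). Lct, a marker of the dentate gyrus, stood at 9.57 CPM there and at most at 0.174 CPM elsewhere. Slc17a7 (202 CPM) and Zbtb20 (660 CPM) made up most of these sums. Cux2 (23.8 CPM) was at its lowest of the 18 libraries there, and Rorb (40.3 CPM) and Wfs1 (56.5 CPM) at their second lowest. In replicate 1 the cortical markers Cux2 (100 CPM) and Rorb (122 CPM) were at their highest of the 18. Ttr, a choroid plexus transcript, stood at 908 to 2904 CPM in 4 libraries (WT replicates 1 and 3, CK2a'(+/-) replicate 1 and zQ175:CK2a'(+/-) replicate 2) and at most at 10.5 CPM elsewhere. Results that rest on these libraries are given with and without them.

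In WT striatum the 10 genes spanned a wide range of levels. Per kilobase of exon, Hpca stood highest (206 ± 53.3 CPM per kb, mean ± SD, n = 5), followed by Pcp4 (184 ± 21.1), Pcp4l1 (158 ± 19.9), Vsnl1 (74.5 ± 17.6), Hpcal4 (49.9 ± 13.5), Calb1 (30.3 ± 7.11), Ncs1 (29.9 ± 2.83), Ncald (8.96 ± 0.907), Hpcal1 (7.41 ± 2.25) and Cabp7 (3.35 ± 0.610). Neighbours in this order were separated without overlap of the WT mice between Pcp4l1 and Vsnl1, between Ncs1 and Ncald, and between Hpcal1 and Cabp7. The other neighbours overlapped. Each length is that of all annotated exons of the gene, so the order depends on the annotation. In CPM not divided by length, Hpcal4 (266 CPM) and Pcp4l1 (249 CPM) stood above Pcp4 (189 CPM) in WT. Counts behind these levels were lowest for Hpcal1 (71 to 342 per library) and Cabp7 (97 to 871) and at least 830 for the other 8 genes.

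**Figure D1:**
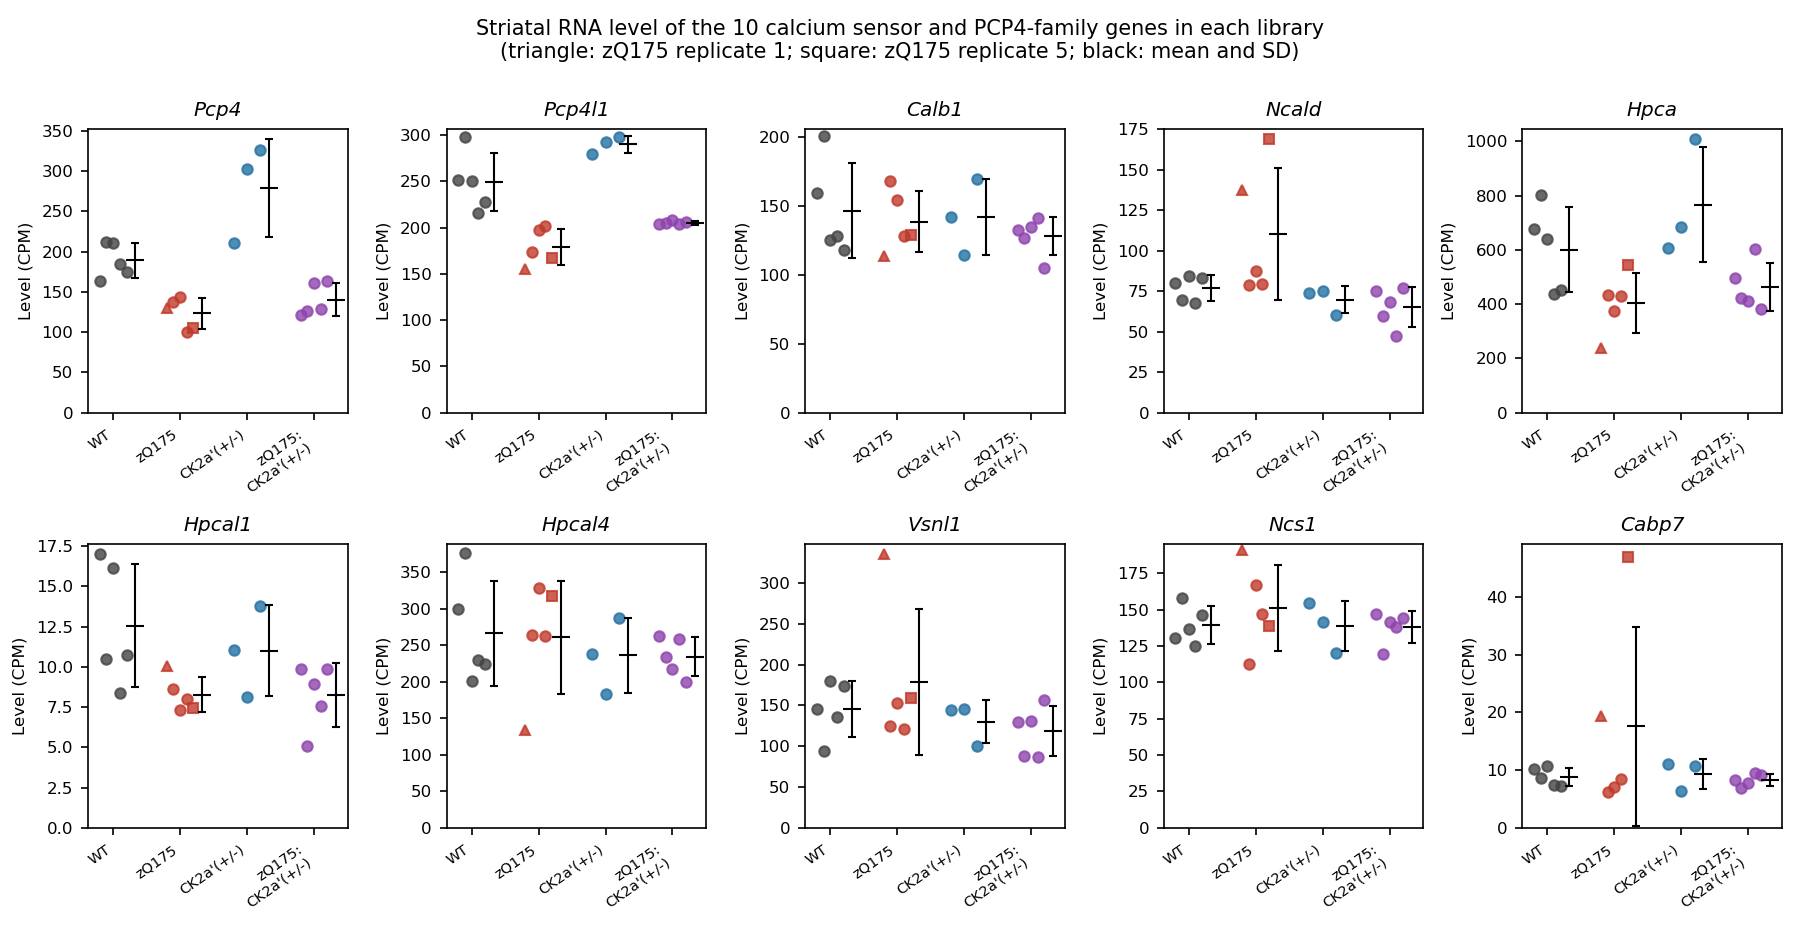
Level in CPM (y axis, linear from 0) of each of the 10 genes in every library, by genotype, with the mean and SD in black and zQ175 replicates 1 and 5 as a triangle and a square. Pcp4 and Pcp4l1 lay lower in every zQ175 mouse than in every WT mouse, while the high zQ175 values of Ncald and Cabp7 came from the triangle and the square and that of Vsnl1 from the triangle.

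Pcp4 (ENSMUSG00000090223, GRCm38 chromosome 16, 96467606 to 96525793, plus strand) and Pcp4l1 (ENSMUSG00000038370, chromosome 1, 171173262 to 171196268, minus strand) encode the calmodulin regulators. Their coding sequences are 189 and 207 bases long and share 58.0% of aligned positions. The most alike stretch holds the acidic residues that lead into the IQ motif, and is shown because both genes took the same course in these libraries. Capitals mark the 43 of 60 bases that are identical (coding bases 82 to 141 of Pcp4 and 100 to 159 of Pcp4l1, from GENCODE transcripts).
Pcp4: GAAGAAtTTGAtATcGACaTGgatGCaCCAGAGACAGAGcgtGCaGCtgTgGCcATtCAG
Pcp4l1: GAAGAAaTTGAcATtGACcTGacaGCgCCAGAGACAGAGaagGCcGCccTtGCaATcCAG
Pcp4 shares 243 of its 1026 exon bases with Igsf5 on the same strand, which stood at 0.888 CPM at most, so how reads in the shared bases were counted adds an uncertainty to its level per kilobase. The longest run of bases that the GENCODE transcripts of any pair of the 10 genes share exactly is 46, which is shorter than the 50-base reads.

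Pcp4 was lower with the zQ175 allele on both CK2a' backgrounds. Its level was 164, 212, 211, 184 and 175 CPM in the WT mice and 130, 137, 144, 101 and 105 CPM in the zQ175 mice. Every zQ175 mouse lay below every WT mouse, and the means (123 ± 19.6 against 189 ± 21.6 CPM, n = 5 each) stood at 0.652 times (log2 fold change -0.62, SE 0.127). In bulk tissue, fewer cells of a type and less RNA per cell cannot be told apart.

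The CK2a'(+/-) background gave a comparison of zQ175 that shares no library with zQ175 against WT. Its zQ175:CK2a'(+/-) libraries were also part of comparisons that bore on the choice. The p-values and calls given for it are therefore a description and no independent test of these genes. Pcp4 stood at 211, 303 and 326 CPM in the CK2a'(+/-) mice and at 122, 126, 161, 129 and 164 CPM in the zQ175:CK2a'(+/-) mice. The groups did not overlap, and Pcp4 fell by 0.99 on the log2 scale (SE 0.143, 95% confidence interval -1.29 to -0.70, edgeR adjusted p = 0.0038), or 0.502 times, lower in 5 of 5 mice. Without the 4 libraries with choroid plexus transcripts the log2 fold change was -1.13 (edgeR adjusted p = 0.0073), and over all 29 alternatives the adjusted p ranged from 2.5e-07 to 0.0718. The zQ175 difference was larger in size here than on the WT background by 0.38 on the log2 scale (interaction -0.38, SE 0.193), a description, since it uses the zQ175 and WT values that bore on the choice.

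Pcp4l1, whose protein is the closest relative of PCP4, was lower with the zQ175 allele on both backgrounds as well. Its level was 252, 298, 250, 216 and 228 CPM in WT mice, 155, 174, 198, 201 and 167 CPM in zQ175 mice. No zQ175 mouse reached the lowest WT mouse, and the zQ175 mean (179 ± 19.9 CPM, n = 5) stood at 0.719 times the WT mean (249 ± 31.4 CPM, n = 5, log2 fold change -0.48, SE 0.084). In the CK2a'(+/-) mice it stood at 279, 292 and 298 CPM. The zQ175:CK2a'(+/-) mice lay within a few CPM of each other, at 203, 204, 209, 204 and 206 CPM, all below the CK2a'(+/-) mice. Pcp4l1 fell by 0.50 on the log2 scale in this comparison (SE 0.096, 95% confidence interval -0.70 to -0.30, edgeR adjusted p = 0.0371), lower in 5 of 5 mice. The edgeR adjusted p was 0.161 without CK2a'(+/-) replicate 2, 0.227 without CK2a'(+/-) replicate 3 and 0.177 without the 4 choroid plexus libraries. With the replicate number as a block it was 0.173. The log2 fold changes were -0.49, -0.48, -0.52 and -0.47 in this order. Over 29 alternatives the adjusted p ranged from 9.6e-04 to 0.227.

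In zQ175:CK2a'(+/-) against CK2a'(+/-), edgeR called 2 of the 10 genes at an adjusted p (FDR) under 0.1, Pcp4 and Pcp4l1, both lower. Of all genes tested 0.593% were called there and 0.368% were called lower, and 4.48% lay lower without overlap, as 3 members did (Pcp4, Pcp4l1 and Hpca). The same 2 were called lower in zQ175 against WT, which bore on their choice and is no test of them. In that comparison 1.1% of all genes tested were called and 0.712% were called lower, and 1.19% lay lower without overlap of the groups, as these 2 members did. The call of both genes in zQ175 against WT was lost without WT replicate 3, without zQ175 replicate 5 and without the 4 choroid plexus libraries, and that of Pcp4 was lost without WT replicate 1. Their log2 fold changes in those fits were -0.57, -0.57, -0.63 and -0.68 for Pcp4, and -0.47, -0.45 and -0.47 for Pcp4l1 in the first 3. It was also lost in a fit of these 2 genotypes alone, at -0.62 and -0.47. Without zQ175 replicates 1 and 5, both of which carry markers of other regions, the remaining 3 zQ175 mice stood at 127 ± 23.3 CPM for Pcp4 and 191 ± 14.9 CPM for Pcp4l1, still below every WT mouse, and the log2 fold changes were -0.57 and -0.38 with no gene called. Summed markers of striatal projection neurons moved with these results. They ranged from 2637 to 5567 CPM in WT, 1385 to 2821 in zQ175, 3924 to 5645 in CK2a'(+/-) and 2342 to 3313 in zQ175:CK2a'(+/-) mice, and their part in the result was not tested. Of the 12 markers, 3 were called lower in zQ175 against WT (median log2 fold change -0.66) and 2 in zQ175:CK2a'(+/-) against CK2a'(+/-) (median -0.74). Sums of other cell types moved as well, without overlap of the groups. The sum of 6 oligodendrocyte markers was 3322 to 5049 CPM in zQ175 against 5130 to 7181 in WT mice, and 3793 to 5165 in zQ175:CK2a'(+/-) against 5398 to 6784 in CK2a'(+/-) mice. That of 8 interneuron markers was 168 to 293 against 303 to 366 CPM, and 249 to 322 against 325 to 346 CPM. On the CK2a'(+/-) background the sums of 7 astrocyte markers (3280 to 3608 against 3914 to 4414 CPM) and 5 endothelial markers (83.2 to 109.02 against 109.31 to 143 CPM) were lower too. The part of these cell types in the result was not tested.

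**Figure D2:**
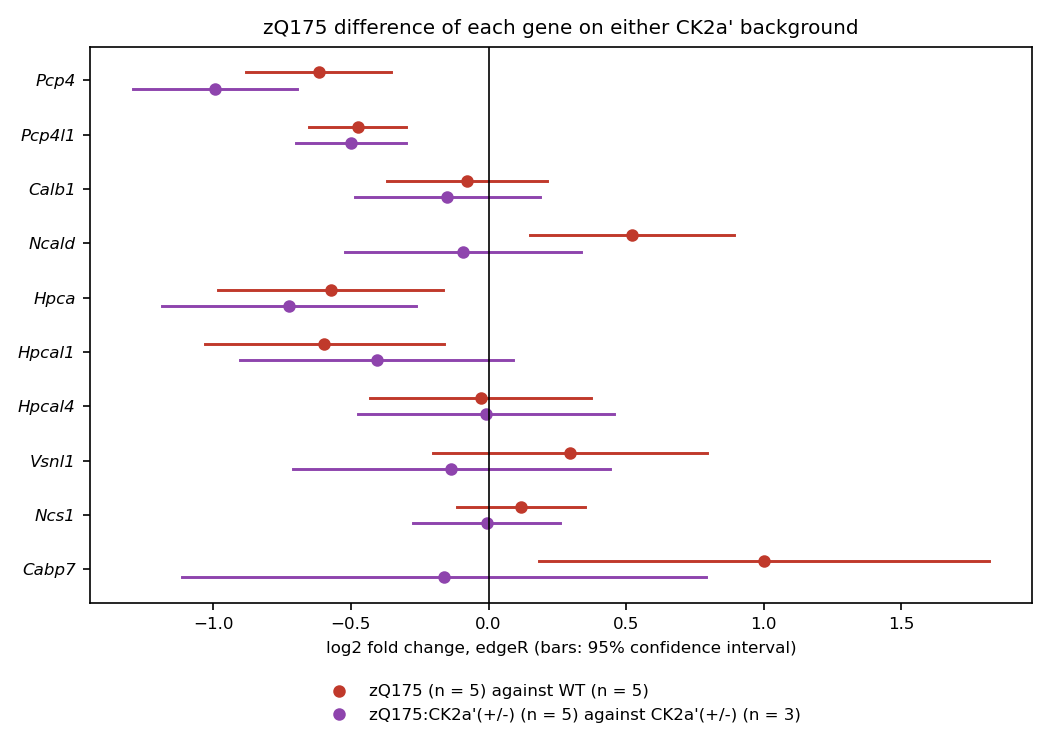
Log2 fold change (x axis) of the 10 genes for the zQ175 allele on the WT background (red) and on the CK2a'(+/-) background (purple), with 95% confidence intervals from edgeR. On the CK2a'(+/-) background Pcp4 stood at -0.99, Hpca at -0.73 and Pcp4l1 at -0.50. The red values bore on the choice of the genes, and those of Ncald (0.52) and Cabp7 (1.00) rest on zQ175 replicates 1 and 5, without which they were 0.09 and -0.29.

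The PCP4 family was also compared between mice that share a huntingtin genotype. Pcp4 stood higher in CK2a'(+/-) than in WT mice (280 ± 60.8, n = 3, against 189 ± 21.6 CPM, n = 5, log2 fold change 0.56, SE 0.144). The lowest CK2a'(+/-) mouse (211 CPM) lay just under the highest WT mouse (212 CPM), and edgeR did not call the difference. It uses the WT values that bore on the choice and is a description. In zQ175 against zQ175:CK2a'(+/-), Pcp4l1 did not overlap, with the highest zQ175 mouse at 201 CPM and the lowest zQ175:CK2a'(+/-) mouse at 203 CPM. The log2 fold change was -0.20 (SE 0.084), and -0.10 without zQ175 replicates 1 and 5. Pcp4 overlapped there, at -0.19 (SE 0.127). Against WT, the zQ175:CK2a'(+/-) mice lay lower without overlap in both genes (0.899% of all genes tested did so), at log2 fold changes of -0.43 for Pcp4 (SE 0.127) and -0.28 for Pcp4l1 (SE 0.084), a description, since this comparison is the difference of those that bore on the choice.

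Calb1 (ENSMUSG00000028222, chromosome 4, 15881264 to 15908064, plus strand) encodes calbindin, the EF-hand buffer of the set. Calb1 stood at 147 ± 34.4 CPM in WT (n = 5), 139 ± 22.1 in zQ175 (n = 5), 142 ± 27.7 in CK2a'(+/-) (n = 3) and 128 ± 13.9 in zQ175:CK2a'(+/-) mice (n = 5). All 4 groups overlapped, and the genotype means lay within the spread of the WT mice alone (118 to 201 CPM). Its log2 fold change for zQ175 was -0.08 (95% confidence interval -0.37 to 0.21) on the WT background and -0.15 (-0.48 to 0.19) on the CK2a'(+/-) background (edgeR adjusted p = 0.864).

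The neuronal calcium sensor family was represented by 6 genes, whose products bind calcium and attach to membranes by myristate. Their first 36 coding bases are shown because they encode the start of the protein, with the glycine after the initiator methionine that carries the myristate. Capitals mark the 21 bases that are the same in all 6 (coding bases 1 to 36, from GENCODE transcripts).
Hpca: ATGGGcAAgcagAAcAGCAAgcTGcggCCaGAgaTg
Hpcal1: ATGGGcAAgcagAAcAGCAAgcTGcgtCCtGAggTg
Ncald: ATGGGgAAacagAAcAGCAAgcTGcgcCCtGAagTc
Hpcal4: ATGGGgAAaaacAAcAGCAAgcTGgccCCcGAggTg
Vsnl1: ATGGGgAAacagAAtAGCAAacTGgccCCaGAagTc
Ncs1: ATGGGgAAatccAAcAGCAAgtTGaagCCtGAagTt
Over the whole coding sequence Hpca and Hpcal1 share 86.1% of aligned positions, Hpcal4 and Vsnl1 82.1%, Ncald and Hpcal1 80.2% and Ncald and Hpca 78.7%, while Ncs1 shares at most 64.3% with any of the other 5.

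Ncald (ENSMUSG00000051359, chromosome 15, 37366175 to 37792570, minus strand) encodes neurocalcin delta, a sensor that takes part in endocytosis. It stood at 79.9, 69.7, 84.4, 67.6 and 83.1 CPM in WT mice, 73.8, 75.2 and 60.3 in CK2a'(+/-) mice and 75.3, 59.6, 68.4, 47.1 and 77.0 in zQ175:CK2a'(+/-) mice. In zQ175 mice it stood at 137, 78.7, 87.4, 79.2 and 169 CPM. The 2 zQ175 mice far above the rest were replicates 1 and 5, the libraries with extra thalamic and with extra cortical and hippocampal markers, and the part of those markers in the result was not tested. The lowest zQ175 mouse (78.7 CPM) still lay above the highest zQ175:CK2a'(+/-) mouse (77.0 CPM).

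Ncald thus stood higher in zQ175 than in zQ175:CK2a'(+/-) mice, at 110 ± 40.8 against 65.5 ± 12.3 CPM (n = 5 each, log2 fold change 0.75, SE 0.180). Without zQ175 replicates 1 and 5, the zQ175 mean was 81.8 ± 4.87 CPM (n = 3) and the log2 fold change 0.32 (SE 0.132). Without replicate 1 alone the log2 fold change was 0.66, and without replicate 5 alone 0.54. Against WT mice the zQ175 log2 fold change was 0.52 (SE 0.179) with overlapping groups, and 0.09 (SE 0.132) without these libraries. The comparisons of Ncald that used no zQ175 library showed smaller differences. CK2a'(+/-) against WT gave -0.14 (SE 0.208, edgeR adjusted p = 0.999). The log2 fold change was -0.09 (SE 0.207) for zQ175:CK2a'(+/-) against CK2a'(+/-) and -0.23 (SE 0.180) for zQ175:CK2a'(+/-) against WT. Both of these use zQ175:CK2a'(+/-) values that bore on the choice and are a description. The interaction for Ncald, which uses the same zQ175 values, was -0.61, and -0.18 without zQ175 replicates 1 and 5.

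In zQ175 against zQ175:CK2a'(+/-) edgeR called 0 of the 10 genes (0.0143% of all genes tested were called). DESeq2 called 1, Ncald, where it called 39 of 26903 genes. Both counts describe values that bore on the choice of the genes. Ncald and Pcp4l1 were the 2 genes without overlap, as were 1.14% of all genes tested. Cabp7 (log2 fold change 1.08, SE 0.396) stood above Ncald in size and Vsnl1 (0.59, SE 0.241) below it, and the groups of both overlapped. Without zQ175 replicates 1 and 5, Cabp7 stood at -0.21 (SE 0.208) and Vsnl1 at 0.16 (SE 0.201).

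**Figure D3:**
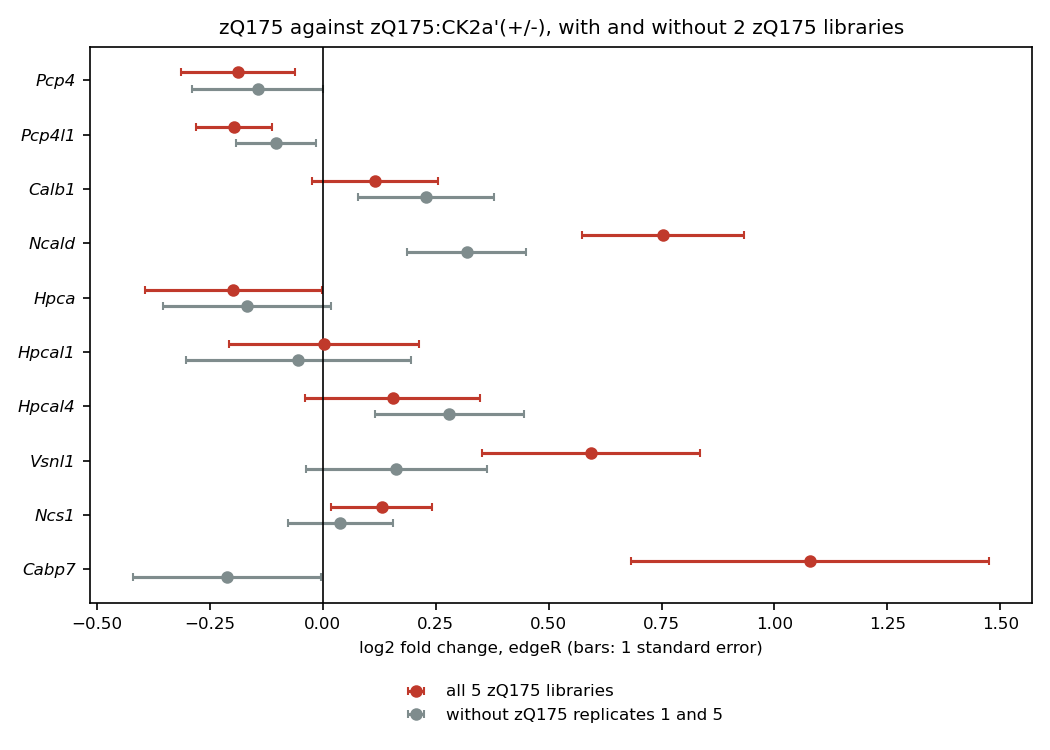
Log2 fold change (x axis) of zQ175 against zQ175:CK2a'(+/-) for the 10 genes, with all 5 zQ175 libraries (red) and without replicates 1 and 5 (grey), with bars of 1 standard error. Ncald moved from 0.75 to 0.32, Vsnl1 from 0.59 to 0.16 and Cabp7 from 1.08 to -0.21.

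Hpca (ENSMUSG00000028785, chromosome 4, 129111570 to 129122036, minus strand) encodes hippocalcin, a sensor that gates a slow potassium current in neurons. Its level was 677, 801, 641, 437 and 451 CPM in WT mice and 239, 434, 374, 429 and 543 CPM in zQ175 mice. These groups overlapped, with the lowest zQ175 value in replicate 1 (log2 fold change -0.57, SE 0.197, and -0.54, SE 0.189, without replicates 1 and 5). On the CK2a'(+/-) background the groups did not overlap, at 608, 684 and 1008 CPM in CK2a'(+/-) mice and 497, 423, 411, 605 and 382 CPM in zQ175:CK2a'(+/-) mice. The log2 fold change was -0.73 (SE 0.223, 95% confidence interval -1.19 to -0.26), which did not pass (edgeR adjusted p = 0.218, 0.0163 to 0.773 over 29 alternatives). Without CK2a'(+/-) replicate 3, the mouse at 1008 CPM, it was -0.48 (SE 0.239). Hpca was lowest (239 CPM) in the library with the lowest summed projection neuron markers (1385 CPM). It was highest (1008 CPM) in that with the highest sum (5645 CPM). The relation across the libraries between these was not tested.

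Hpcal1 (ENSMUSG00000071379, chromosome 12, 17690856 to 17791933, plus strand) encodes a visinin-like relative of hippocalcin and was one of the scarcest members. It stood at 12.6 ± 3.81 CPM in WT, 8.28 ± 1.11 in zQ175, 11.0 ± 2.84 in CK2a'(+/-) and 8.26 ± 2.00 in zQ175:CK2a'(+/-) mice. The groups overlapped in every comparison, and the WT mean rested on replicates 1 and 3 (17.0 and 16.1 CPM), both choroid plexus libraries, whose part in the result was not tested. The zQ175 log2 fold change was -0.60 (SE 0.209) with them and -0.25 (SE 0.189) without the 4 choroid plexus libraries.

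Hpcal4 (ENSMUSG00000046093, chromosome 4, 123183227 to 123194701, plus strand), another relative of hippocalcin, stood at 266 ± 71.8 CPM in WT, 261 ± 77.3 in zQ175, 236 ± 51.5 in CK2a'(+/-) and 235 ± 27.0 in zQ175:CK2a'(+/-) mice. The zQ175 mice spread from 134 CPM in replicate 1, below the other 17 libraries, over 263, 264 and 317 to 329 CPM, and overlapped every other group. Its log2 fold change for zQ175 was -0.03 (95% confidence interval -0.43 to 0.37) on the WT background and -0.01 (-0.47 to 0.46) on the CK2a'(+/-) background, and turned to 0.10 on the WT background without replicates 1 and 5.

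Vsnl1 (ENSMUSG00000054459, chromosome 12, 11325242 to 11436613, minus strand) encodes visinin-like protein, a sensor used as a marker of neuronal injury. It stood at 336 CPM in zQ175 replicate 1 and between 87.4 and 180 CPM in the other 17 libraries. The WT mice stood at 145, 93.8, 180, 136 and 174 CPM and the zQ175 mice at 336, 125, 153, 121 and 159 CPM. The zQ175 mean (179 ± 89.3 CPM) thus rested on the library with extra thalamic markers, and was 133 ± 17.5 CPM without replicates 1 and 5 (n = 3). Its log2 fold change against WT was 0.30 (SE 0.240) with all mice, 0.12 (SE 0.215) with the Xist level as covariate and -0.13 (SE 0.202) without replicates 1 and 5.

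Ncs1 (ENSMUSG00000062661, chromosome 2, 31245823 to 31295989, plus strand), the family member found from yeast to mammals, had genotype means close to each other. It stood at 139 ± 13.2 CPM in WT, 151 ± 29.7 in zQ175, 139 ± 17.3 in CK2a'(+/-) and 138 ± 10.9 in zQ175:CK2a'(+/-) mice, and all groups overlapped. The zQ175 log2 fold change was 0.12 (95% confidence interval -0.11 to 0.35) on the WT background and -0.01 (-0.28 to 0.26) on the CK2a'(+/-) background.

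Cabp7 (ENSMUSG00000009075, chromosome 11, 4736892 to 4746778, minus strand) encodes a membrane-bound relative of calmodulin at the Golgi apparatus. It stood at 10.2, 8.55, 10.8, 7.42 and 7.18 CPM in WT mice and at 19.3, 6.14, 7.07, 8.38 and 46.8 CPM in zQ175 mice. The CK2a'(+/-) and zQ175:CK2a'(+/-) mice lay between 6.30 and 11.1 CPM. The 2 high values belong to zQ175 replicates 1 and 5, without which the zQ175 mean was 7.20 ± 1.12 CPM (n = 3) in place of 17.5 ± 17.2 CPM (n = 5). The zQ175 log2 fold change against WT was 1.00 (SE 0.394) with them and -0.29 (SE 0.207) without. The interaction for Cabp7 was -1.16 (SE 0.600), and 0.13 without them. Cabp7 shares 338 of its 2628 exon bases with Zmat5 on the opposite strand, which stood at 5.01 to 9.59 CPM, so its level carries an uncertainty as to which gene the shared reads came from.

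**Figure D4:**
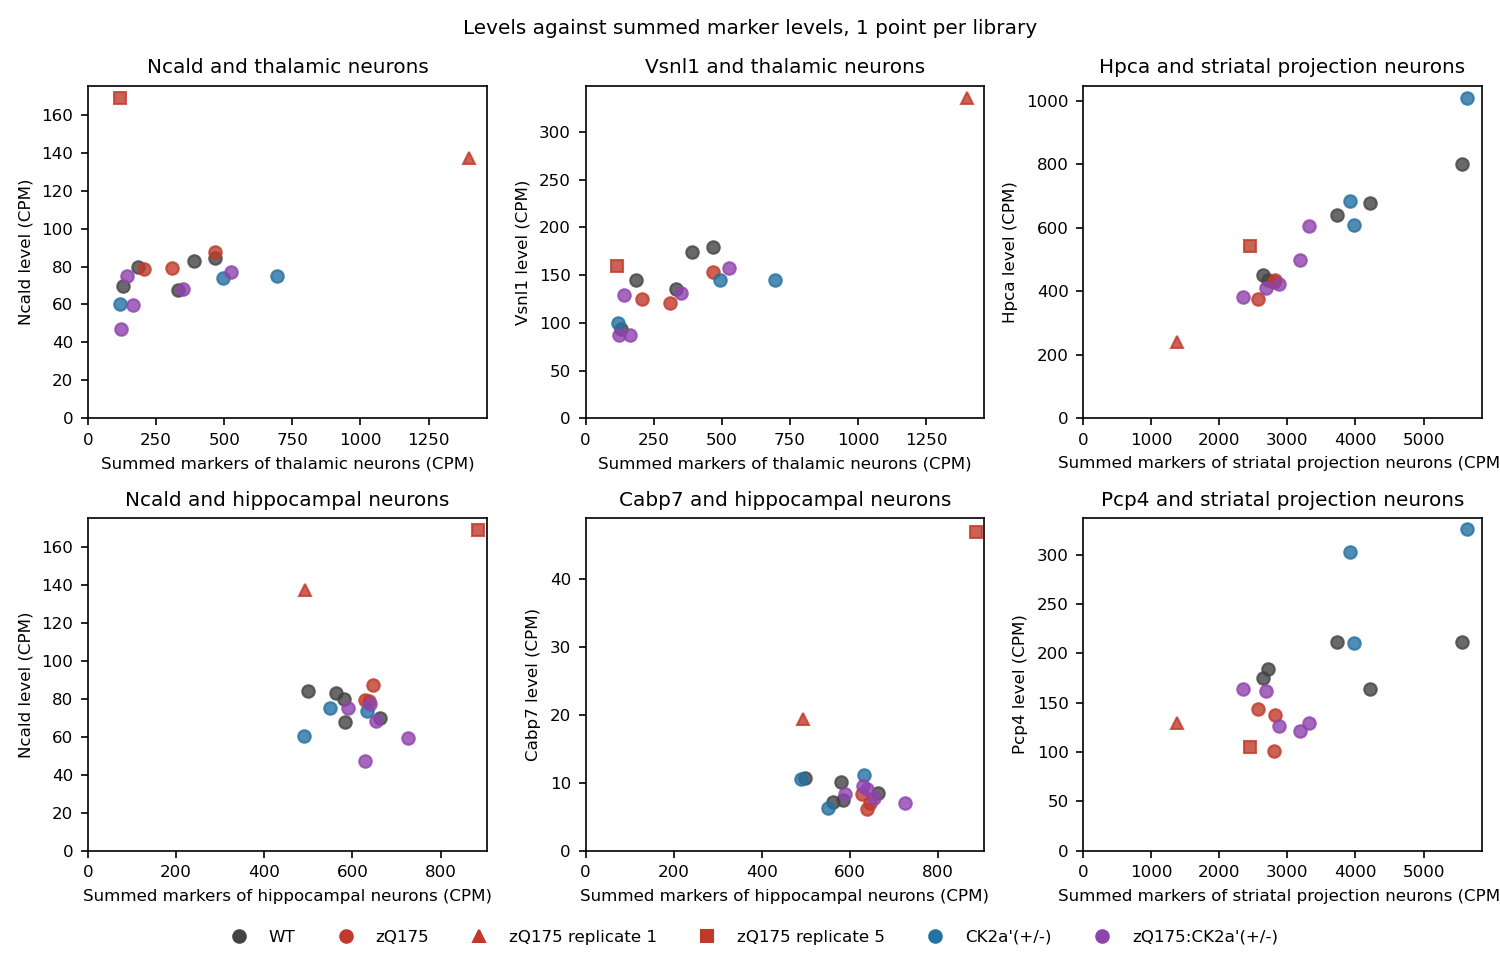
Level in CPM of Ncald, Vsnl1, Cabp7, Hpca and Pcp4 (y axes) against summed marker levels in CPM (x axes), 1 point per library, coloured by genotype, with zQ175 replicates 1 and 5 as a triangle and a square. Vsnl1 was highest at the highest thalamic sum (1400 CPM), Ncald and Cabp7 at the highest hippocampal sum (885 CPM), and Hpca lowest at the lowest projection neuron sum (1385 CPM).

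Counted over the whole set, members with a negative log2 fold change were 6 of 10 in zQ175 against WT (median -0.05). In zQ175:CK2a'(+/-) against CK2a'(+/-) they were 10 of 10 (median -0.16). The median of all genes tested was 0.00 in each, and 50.58% and 50.65% of all genes had a positive value. In zQ175:CK2a'(+/-) against WT negative members were 10 of 10 as well (median -0.26). There the median of all genes was -0.01 and 48.48% were positive. This comparison shares its libraries with the others and is no test of these genes. In it edgeR called 0 of the 10 (0.0143% of all genes were called) and DESeq2 called 0 (123 of 16971 genes were called). In CK2a'(+/-) against WT, which uses WT values that bore on the choice, edgeR and DESeq2 called 0 of the 10. Of all genes edgeR called 0.0143% and DESeq2 11 of 37559. By edgeR 2 members were at an unadjusted p under 0.05, against 4.48% of all genes. For the interaction, which uses values that bore on the choice and is no test of these genes, both called 0. Of all genes edgeR called 0.00478% and DESeq2 19 of 18391. Several of these negative values were near 0, and their sign depended on the libraries and settings used.

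The genes did not move as 1 block across libraries. Over the 18 libraries, log2 CPM of Pcp4 and Pcp4l1 had a Pearson correlation of 0.843 (Spearman 0.868), but 0.216 once the genotype means were taken out. Calb1 and Hpcal4 had 0.768 (Spearman 0.827) and kept 0.775 within genotypes. Ncald and Vsnl1 had 0.750 (Spearman 0.800) and 0.817 without zQ175 replicates 1 and 5, whereas Ncald and Cabp7 had 0.746 (Spearman 0.257) and -0.16 without them. Hpca, the closest in sequence to Hpcal1, had 0.434 with it, and Hpcal4 and Vsnl1, which share 82.1% of coding positions, had -0.63. These correlations share library depth, dissection and genotype, and are a description.

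The gene with the level most like Hpca over the 18 libraries was Kcnip2 (Pearson 0.984, Spearman 0.975). Pcp4l1 was most like Abi3bp (0.939), Gsg1l (0.938) and Scn4b (0.930), and Pcp4 most like Rap1gap (0.869), Kctd17 (0.864) and S100a10 (0.842). Vsnl1 was most like Disp2 (0.947), Ncald most like Apba2 (0.934), Hpcal4 most like Dlgap2 (0.918) and Calb1 most like Syt10 (0.899). Ncs1 was most like Atxn7l3 (0.857) and Hpcal1 most like 2900052N01Rik (0.837). The likeness of Cabp7 to Slit1 (0.927, Spearman 0.567) was 0.418 without zQ175 replicates 1 and 5. The same libraries moved the others less, since without them Hpca and Kcnip2 had 0.988, Pcp4l1 and Scn4b 0.938 and Ncald and Apba2 0.812.

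Other genes of calcium handling were taken from lists chosen with earlier results of these data known. Of 70 genes in 7 lists (other calcium sensors and Kv channel interacting proteins, other CaBP and calneuron genes, other EF-hand buffers, calmodulins, other calmodulin-binding regulators, calmodulin-dependent enzymes, and calcium release channels and pumps), 59 were tested. In zQ175 against WT edgeR called 1 of the 59 lower (1.69%, where 1.1% of all genes tested were called), and their median change was -0.04 on the log2 scale. In zQ175:CK2a'(+/-) against CK2a'(+/-) 3 were called lower and 1 higher (6.78% of the 59, where 0.593% of all genes tested were called), with a median of -0.23, and edgeR called 0 in the other comparisons. The gene called lower in both was Ryr1, a channel that releases calcium from internal stores. Ryr1 stood at 81.4, 153, 130, 40.2 and 25.5 CPM in WT and at 13.6, 42.7, 26.0, 24.2 and 30.2 CPM in zQ175 mice, with overlapping groups (log2 fold change -1.65, SE 0.371, edgeR adjusted p = 0.0594). It stood at 114, 92.3 and 143 CPM in CK2a'(+/-) and 39.3, 19.7, 23.8, 33.7 and 20.0 CPM in zQ175:CK2a'(+/-) mice, without overlap (-2.09, SE 0.409, edgeR adjusted p = 0.0388).

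The other genes called on the CK2a'(+/-) background came from 3 different lists. Kcnip3, a calcium sensor that binds Kv4 channels and DNA and belongs to the same family as the 6 sensors above, fell by 0.57 on the log2 scale (57.7 ± 6.65, n = 5, against 85.6 ± 11.9 CPM, n = 3, edgeR adjusted p = 0.0335). Atp2b1, a calcium pump of the plasma membrane, fell by 0.58 (860 ± 45.4 against 1282 ± 37.1 CPM, edgeR adjusted p = 0.0989). Marcks, a substrate of protein kinase C that binds calmodulin, rose by 0.38 (112 ± 6.37 against 86.0 ± 4.63 CPM, edgeR adjusted p = 0.0759). None of the 3 overlapped between the groups. In the lists with no call, the gene with the lowest p in zQ175 against WT was Pde1b among calmodulin-dependent enzymes (-0.60, SE 0.180, edgeR adjusted p = 0.138), Pvalb among the buffers (-0.65, SE 0.307, edgeR adjusted p = 0.348), Caln1 among calneurons (-0.22, SE 0.155, edgeR adjusted p = 0.561) and Calml4 among calmodulins (-2.40, SE 1.23, edgeR adjusted p = 0.395). Calml4 stood under 1 CPM in most mice and above 2 CPM only in the 4 choroid plexus libraries.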

How the data were processed

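Striatal total RNA was sequenced as paired 50-base reads after stranded library preparation, 1 library per mouse. Trimmomatic, HISAT2 2.1.0 (genome GRCm38) and Subread 1.6.2 are named in the submitters' processing notes. The authors deposited raw counts per gene after removing duplicate and poorly mapped reads, without normalization. The deposited gene lengths (unit other) equal the summed exons of GENCODE M21 for all 10 genes. Whether counting used strand is not given in the sources used here. The members and gene lists were chosen with earlier results of these data known.

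Counts were fitted with edgeR 4.0.16 (quasi-likelihood, TMM, filterByExpr) in R 4.3.3, all 18 libraries in 1 fit by genotype, with Benjamini-Hochberg adjustment over 20914 genes and a threshold of 0.1. Levels are TMM-scaled CPM, and correlations used log2 CPM with a prior count of 2. Genes named were the members, each called gene of the calcium lists or else that with the lowest p in zQ175 against WT, and of the 3 genes most correlated with each member at least the first. edgeR and DESeq2 were tested on simulated data. Labels carry replicate numbers in each genotype, but same-numbered libraries did not deviate together (24 pairs, correlations -0.136 to 0.12, 2 of them over 0.1) and were not treated as pairs. The p-values measure the spread between these mice. Alternatives were DESeq2 1.42.0, its size factors, library size only, no filter, at least 10 counts in 10% of libraries, a fit of the compared pair of genotypes, a block for replicate number, Xist level as covariate, a robust fit, FDR 0.05 and leaving out each library. Leaving out zQ175 replicates 1 and 5, or the 4 choroid plexus libraries, was chosen after seeing the data.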

Additional observations from a re-analysis of the deposited data

Results flagged for a closer look

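Vsnl1 in zQ175 replicate 1, at 336 CPM, stood far from the other 4 zQ175 mice (121 to 159 CPM), with a gap of 0.822 of the group's range against a critical value of 0.71 (Dixon's test). It was the only value past that limit in 30 groups of 5 mice tested, and chance alone passes about 1 group in 20. The same library held the highest summed thalamic markers (1400 CPM), and their part in the value was not tested.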

How the results depend on the processing

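Pcp4 kept a negative log2 fold change and its call in zQ175:CK2a'(+/-) against CK2a'(+/-) under every alternative run. The number of members called, 2 in zQ175 against WT, was 4 without a filter on low counts (with Ncald and Hpca, where 451 of 37580 genes were called). It was 0 with only the 2 groups compared or without zQ175 replicates 1 and 5 (0 genes called in each). Without the 4 choroid plexus libraries it was 0 (1 of 21312 genes). With 1 library left out it ranged from 0 to 2. It was 0 without WT replicate 3 or zQ175 replicate 5 (0 genes called in each) and 1 without WT replicate 1 (10 of 20813 genes). In zQ175:CK2a'(+/-) against CK2a'(+/-) it was 2. There it was 1 without the choroid plexus libraries (14 of 21312 genes called) and 1 with the replicate number as a block (12 of 20914), Pcp4 in each. With 1 library left out it ranged from 1, without CK2a'(+/-) replicate 2 (6 of 21772) or 3 (8 of 21773), to 3, without zQ175 replicate 1 (205 of 20815). It was also 3 without the filter (297 of 37580), with only the 2 groups compared (461 of 18974) and without zQ175 replicates 1 and 5 (222 of 20688), each time with Hpca. In zQ175 against zQ175:CK2a'(+/-) it was 0 and became 1 (Ncald) with DESeq2 (39 of 26903) and without the filter (51 of 37580). In CK2a'(+/-) against WT it was 0 and became 1 (Pcp4) without the filter (19 of 37580). It stayed at 0 in the other comparisons. The causes were not tested. In the replicate block, every other member kept its side of the threshold. Of 18 libraries, 1 correlated best with its own number.

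Calls among all genes, in the order zQ175 against WT, zQ175:CK2a'(+/-) against WT, zQ175 against zQ175:CK2a'(+/-), CK2a'(+/-) against WT, zQ175:CK2a'(+/-) against CK2a'(+/-) and interaction, were 230, 3, 3, 3, 124 and 1, and with DESeq2 855, 123, 39, 11, 322 and 19. Without the filter they were 451, 85, 51, 19, 297 and 10, and with the block 98, 1, 1, 1, 12 and 1. With only the 2 groups compared they were 0, 1, 2, 0 and 461 in the first 5. Leaving out 1 library moved them over 0 to 587, 1 to 34, 1 to 6, 1 to 9, 6 to 221 and 0 to 2, leaving out zQ175 replicates 1 and 5 gave 0, 3, 2, 3, 222 and 0, and leaving out the choroid plexus libraries 1, 2, 2, 2, 14 and 0.

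Of 1730 refitted log2 fold changes of members, 1628 kept their direction and side of the threshold and 77 changed sign. Without zQ175 replicates 1 and 5, sign changed for Calb1 (0.037), Hpcal4 (0.099), Vsnl1 (-0.13) and Cabp7 (-0.29) in zQ175 against WT, Hpcal1 (-0.054) and Cabp7 (-0.21) in zQ175 against zQ175:CK2a'(+/-) and Hpcal4 (-0.11) and Cabp7 (0.13) in the interaction. Without the choroid plexus libraries, sign changed for Cabp7 (0.17) in zQ175:CK2a'(+/-) against WT, Hpcal1 (-0.13) in zQ175 against zQ175:CK2a'(+/-), Hpcal1 (0.15) in CK2a'(+/-) against WT, Vsnl1 (0.040), Ncs1 (0.12) and Cabp7 (0.043) in zQ175:CK2a'(+/-) against CK2a'(+/-) and Hpcal1 (-0.022) and Ncs1 (0.044) in the interaction. With the Xist level as covariate, sign changed for Hpcal1 (-0.041) in zQ175 against zQ175:CK2a'(+/-), Calb1 (0.0061) and Cabp7 (-0.11) in CK2a'(+/-) against WT, Ncald (0.11), Vsnl1 (0.13), Ncs1 (0.068) and Cabp7 (0.091) in zQ175:CK2a'(+/-) against CK2a'(+/-) and Hpcal4 (-0.059) and Vsnl1 (0.0084) in the interaction. With library size only, sign changed for Ncs1 (0.015) in zQ175:CK2a'(+/-) against WT, Hpcal1 (-0.027) in zQ175 against zQ175:CK2a'(+/-), Ncs1 (0.0054) in CK2a'(+/-) against WT, Hpcal4 (0.014) and Ncs1 (0.0094) in zQ175:CK2a'(+/-) against CK2a'(+/-) and Pcp4l1 (0.0016) in the interaction. With the replicate block, sign changed for Hpcal4 (0.0098) and Ncs1 (0.011) in zQ175:CK2a'(+/-) against CK2a'(+/-) and Pcp4l1 (0.0039) and Calb1 (0.0050) in the interaction. Without the filter, sign changed for Hpcal1 (-0.0037) in zQ175 against zQ175:CK2a'(+/-). With 1 library left out at a time, values crossed 0 for Calb1 (-0.17 to 0.049), Hpcal4 (-0.14 to 0.14) and Vsnl1 (-0.065 to 0.40) in zQ175 against WT, Ncs1 (-0.051 to 0.035) and Cabp7 (-0.14 to 0.0065) in zQ175:CK2a'(+/-) against WT, Hpcal1 (-0.13 to 0.069) in zQ175 against zQ175:CK2a'(+/-), Calb1 (-0.19 to 0.099), Ncs1 (-0.090 to 0.088) and Cabp7 (-0.066 to 0.31) in CK2a'(+/-) against WT, Ncald (-0.19 to 0.0061), Hpcal4 (-0.16 to 0.15) and Ncs1 (-0.100 to 0.078) in zQ175:CK2a'(+/-) against CK2a'(+/-) and Pcp4l1 (-0.10 to 0.029), Calb1 (-0.21 to 0.076), Hpca (-0.29 to 0.093) and Hpcal4 (-0.14 to 0.18) in the interaction.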
